A study of Mus musculus with 2 samples.

Results

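The granins and the enzymes that process prohormones were followed through chromatin accessibility in prostate tumor cells at an early and a late stage of progression toward neuroendocrine prostate cancer. The group holds 10 genes of the 21883 protein-coding genes analysed: the granins and related granule proteins Chga, Chgb, Scg2, Scg3, Scg5 and Vgf, the convertases Pcsk1 and Pcsk2, and the trimming and amidating enzymes Cpe and Pam. The genes were chosen by function, with earlier results of these data known, and their regions were all peaks that touched the gene body or the 50 kb on either side of it. These windows held 5 of the 5735 peaks of the early library and 34 of the 22570 peaks of the late library. Accessibility had been measured by ATAC-seq, in which a transposase cuts open DNA and tags it for sequencing, on C57BL/6 mouse prostate tumor cells. The library W2 came from cells given tamoxifen for 2 weeks and the library M6 from cells given tamoxifen for 6 months, so tamoxifen exposure was common to both. The sources used here do not give the alleles of these mice or say whether the cells were cultured. Each stage had 1 library, so no difference between stages has a replicate check and no test between them was made. Intervals cover counting error only.

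Neuroendocrine cells store peptide hormones in dense-core granules. Granins are acidic proteins that aggregate with hormone cargo as these granules form, the convertases cut the precursors at pairs of basic residues, carboxypeptidase E removes the basic residues left behind, and the Pam enzyme amidates the ends of many finished peptides. Chromogranin A and related granins are widely used as tissue and serum markers of neuroendocrine tumors, including those of the prostate.

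The M6 list was 3.94 times as long as the W2 list. The lowest local background around a peak was 2.65 tags in M6 and 2.96 in W2, and the median was 3.52 and 3.44. The sources used here give no read numbers, and the part of depth in the length of the lists was not tested. The lowest pileup of tags at a summit was 12 in the W2 list and 10 in the M6 list, so weaker sites are outside both. As a check of the tissue label, the epithelial adhesion genes Epcam and Cdh1 had a peak within 1 kb of a gene end in both libraries, and the keratin gene Krt8 had one in M6. No gene-end peak was found at the 5 leukocyte, 3 endothelial or 3 fibroblast markers in either library. Of 6 neuroendocrine markers outside the group, W2 listed a gene-end peak at none, and M6 at Ncam1 and at Eno2, whose peak is also at an end of Lrrc23. The shares over all protein-coding genes were 18.4% (W2) and 39.7% (M6), so these counts were not above the overall share. Chga, the standard marker of this tumor type, had none in either library.

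The promoters are shown first because the full M6 list had a peak at 7 of 8 starts, against 42.3% of all genes with a start. With the M6 list cut to the length of the W2 list, only Scg3 kept its start peak, against 17.7% of all. RefSeq promoter sequences of GRCm38.p6, the assembly that mm10 names, run from 250 bases before to 50 bases after the start and were matched for 8 of the 10 genes. Vgf and Cpe were described by their annotated ends. Printed below are the 3 promoters with a full cAMP response element (Scg2, Chgb and Pcsk1), that of Scg3, which had the strongest start peak, that of Chga, which had none, and that of Pam, open in both libraries. They lie at chr1:79439977-79440276 (Scg2, minus strand), chr2:132781392-132781691 (Chgb, plus), chr13:75089607-75089906 (Pcsk1, plus), chr9:75684007-75684306 (Scg3, minus), chr12:102554691-102554990 (Chga, plus) and chr1:98095597-98095896 (Pam, minus). Capitals mark TGACG, the core of the cAMP response element, on either strand, and TGACGTCA where the full element occurs.
Scg2: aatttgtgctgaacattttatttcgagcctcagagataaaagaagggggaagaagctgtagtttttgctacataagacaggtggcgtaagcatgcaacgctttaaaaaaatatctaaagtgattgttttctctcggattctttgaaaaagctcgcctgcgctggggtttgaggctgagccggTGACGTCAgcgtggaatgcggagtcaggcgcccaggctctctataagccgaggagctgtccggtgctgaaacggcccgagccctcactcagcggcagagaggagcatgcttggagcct
Chgb: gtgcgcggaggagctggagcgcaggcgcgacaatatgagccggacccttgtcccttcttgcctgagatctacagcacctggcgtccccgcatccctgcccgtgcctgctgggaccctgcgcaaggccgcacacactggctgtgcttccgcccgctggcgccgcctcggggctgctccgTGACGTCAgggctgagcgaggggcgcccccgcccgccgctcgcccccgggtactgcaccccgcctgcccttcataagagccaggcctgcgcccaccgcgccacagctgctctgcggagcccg
Pcsk1: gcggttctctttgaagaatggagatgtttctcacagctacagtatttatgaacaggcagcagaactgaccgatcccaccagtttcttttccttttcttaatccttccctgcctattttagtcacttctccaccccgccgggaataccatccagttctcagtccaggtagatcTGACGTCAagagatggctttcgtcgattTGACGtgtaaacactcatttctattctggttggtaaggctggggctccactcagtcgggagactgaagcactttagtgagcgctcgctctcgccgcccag
Scg3: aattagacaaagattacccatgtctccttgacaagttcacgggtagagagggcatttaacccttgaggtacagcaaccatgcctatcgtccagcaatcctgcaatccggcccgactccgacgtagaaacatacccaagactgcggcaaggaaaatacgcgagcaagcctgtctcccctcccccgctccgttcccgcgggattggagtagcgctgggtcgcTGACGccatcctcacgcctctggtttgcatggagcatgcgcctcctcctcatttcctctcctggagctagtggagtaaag
Chga: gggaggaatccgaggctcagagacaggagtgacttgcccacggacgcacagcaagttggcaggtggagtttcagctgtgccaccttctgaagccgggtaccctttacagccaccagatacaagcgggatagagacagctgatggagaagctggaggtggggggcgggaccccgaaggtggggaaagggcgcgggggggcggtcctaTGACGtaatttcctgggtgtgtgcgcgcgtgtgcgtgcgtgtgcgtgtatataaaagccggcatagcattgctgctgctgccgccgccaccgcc
Pam: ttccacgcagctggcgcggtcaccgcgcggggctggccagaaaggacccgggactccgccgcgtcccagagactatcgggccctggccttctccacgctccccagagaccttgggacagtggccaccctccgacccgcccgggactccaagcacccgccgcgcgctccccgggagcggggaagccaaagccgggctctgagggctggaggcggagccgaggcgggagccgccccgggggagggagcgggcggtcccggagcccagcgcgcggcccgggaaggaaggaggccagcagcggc

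The full element TGACGTCA, which holds the core on both strands, was found in 3 of the 8 promoters. It was found in 2.34% of the 17491 protein-coding promoters of the same length. It began 68 bases before the start of Scg2, 72 before that of Chgb and 78 before that of Pcsk1. The Scg2 and Chgb copies lay inside the M6 start peak of their gene, and the Pcsk1 copy lay outside every peak. The core TGACG occurred in 7 of the 8 promoters, all except that of Pam, against 23.8% of all promoters. In Scg3 it began 30 bases before the start and was inside the M6 peak. In Chga it began 44 bases before the start, where neither library had a peak. The other motifs searched on both strands were CAGCTG, an E-box of proneural factors (4 of 8 promoters against 15.1% of all), CAGATG (0 of 8 against 14.8%), GGGCGG, the GC box (6 of 8 against 46.3%), TGTTTAC, a forkhead motif (1 of 8 against 2.94%), TATAAA (1 of 8 against 13.3%) and GGACAGC, part of the REST element (1 of 8 against 6.84%). The last match was in Scg2, 14 bases before the start, inside its M6 peak. GC content of the 8 promoters ran from 49.3% (Pcsk1) to 76.3% (Pam and Pcsk2), and the median over all promoters was 56.3%. These matches describe letters in the promoters and not bound factors.

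In M6, 9 of the 10 genes had a peak within 1 kb of their start, or of an annotated end for Vgf and Cpe, and in W2 only Pam had one. No share over all genes was counted by this mixed rule. The strand of Vgf and Cpe was not given, so their end peaks may not be at a start. Counted by RefSeq start, M6 had a start peak at 7 of the 8 genes and W2 at 1. Over all 17491 genes with such a start the shares were 42.3% in M6 and 19.9% in W2, and 23.1% had a start peak in M6 alone, as did 6 of these 8. Of all genes with an M6 start peak, 45.4% also had one in W2. Among the 7 genes here, Pam did. Counted by either annotated end of the gene body, the genes numbered 8 in M6 and 1 in W2, against 39.7% and 18.4% of all genes. The difference between the rules is Scg3, whose listed start lies inside the annotated body, and Vgf and Cpe, which have only ends.

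**Figure D1:**
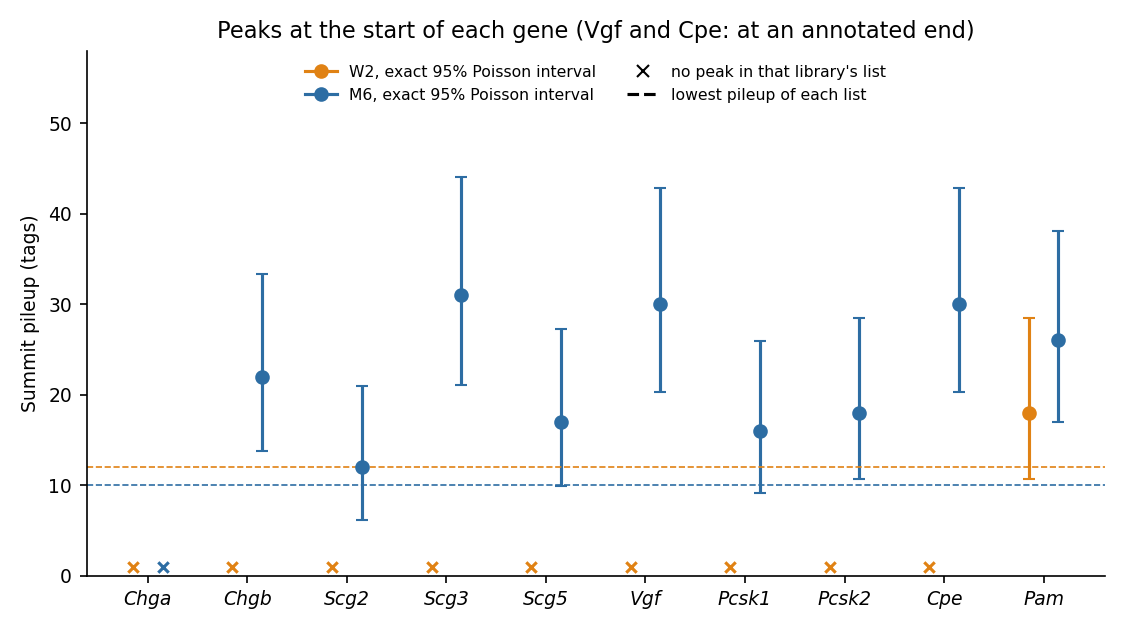
Tags at the summit (y axis) of the peak at each gene's start, or at an annotated end for Vgf and Cpe, with exact 95% Poisson intervals; orange is W2, blue is M6, crosses at the bottom mark genes without a listed peak and dashed lines the lowest pileup of each list. M6 values run from 12 at Scg2 to 31 at Scg3, Chga has no peak, and only Pam has a value in W2.

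Scg3, a granin that tethers chromogranin A to the granule membrane, had the strongest start peak. In M6 it lay at chromosome 9, 75683862 to 75684249, with a pileup of 31 tags (95% Poisson interval 21.1 to 44.0), a fold of 6.96 over local background and a −log10 q, the caller's significance after correction, of 15.2. Its summit was 32 bases before the start, and the peak covered 243 of the 300 promoter bases. W2 had no peak at Scg3 itself. The nearest W2 peak was 57.6 kb from the start, at Lysmd2.

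Chgb, chromogranin B, had an M6 peak over its start at chromosome 2, 132781482 to 132781895, with a pileup of 22 (13.8 to 33.3), a fold of 4.77 and a −log10 q of 7.38. It covered 210 promoter bases. The other peak of the Chgb window overlapped the bodies of both Trmt6 and Mcm8, 34.4 kb from the Chgb start, and was found in both libraries. W2 listed a peak in this neighbourhood and none at Chgb. The neighbouring peak was the stronger one in M6 (pileup 37, −log10 q 19.9). Its presence in W2 does not show whether a Chgb peak could have been listed there.

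Scg2, secretogranin II, the precursor of the peptide secretoneurin, had the weakest start peak of the group. It spanned 200 bp (chromosome 1, 79440029 to 79440228), all within the promoter, with a pileup of 12 (6.20 to 21.0), a fold of 3.56 and a −log10 q of 2.66. A second M6 peak, 33.6 kb beyond the far end of the gene at 79400418 to 79400794, was much stronger, with a pileup of 35 (24.4 to 48.7), a fold of 8.61 and a −log10 q of 20.5. The Poisson intervals of the pileups did not overlap. Scg2 was the nearest gene to both. No W2 peak lay within 50 kb, and the nearest one was 336 kb from the start.

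Scg5, the 7B2 chaperone that PC2 needs in order to mature, had 4 M6 peaks within its body and none in W2. The one over its start (chromosome 2, 113828895 to 113829212) had a pileup of 17 (9.90 to 27.2), a fold of 3.64 and a −log10 q of 3.86. The other 3 lay 10.9, 33.7 and 48.1 kb into the gene with pileups of 14 or 15 and −log10 q from 3.72 to 4.67. All 4 were thus weak, below the median −log10 q of 6.92 of all M6 peaks. A further M6 peak in the window lay in Arhgap11a (pileup 19).

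Vgf, a neurotrophin-induced granule protein and peptide precursor, had an M6 peak inside its body, its summit 0.458 kb from the upper annotated end (chromosome 5, 137032731 to 137033022). The pileup was 30 (20.2 to 42.8) and the fold 4.25, over a local background of 6.30 tags, the highest of the 34 M6 peaks and above the library median of 3.52. The other 3 M6 peaks of this gene-dense window were nearest to Znhit1 and Plod3, to Plod3 and to Ap1s1. W2 had none in the window.

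Chga, chromogranin A, stood apart within the group. Its body held no peak in either library, and its promoter was free of peaks. M6 had a weak peak 22.1 kb from the gene body on the start side (chromosome 12, 102532573 to 102532857, pileup 15, −log10 q 4.67). A second one lay inside the neighbouring Itpk1 (pileup 19, −log10 q 5.95). The nearest W2 peak was 85.7 kb from the start. A missing peak means that the list holds no peak at the site, not that the site was closed.

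The convertases had weak start peaks in M6 only. Pcsk1, which encodes PC1/3, had a single peak in its whole window, at chromosome 13, 75090379 to 75090646, with a pileup of 16 (9.15 to 26.0), a fold of 3.28 and a −log10 q of 2.97. It began 0.522 kb after the start and so lay outside the printed promoter. Pcsk2, which encodes PC2, had a peak whose summit was 388 bases before the start (chromosome 2, 143545489 to 143545899, pileup 18, 10.7 to 28.4, −log10 q 4.68). It had 2 more M6 peaks 134 and 157 kb into the gene, with pileups of 13 and 21. The nearest W2 peaks were 281 kb from the Pcsk1 start and 369 kb from that of Pcsk2. Over all genes with a start, the median distance to the nearest W2 peak was 69.2 kb and the upper quartile 253 kb. Of the 8 genes here, 4 lay beyond that quartile: Scg2, Scg5, Pcsk1 and Pcsk2. For M6 the median over all genes was 8.47 kb, and Chga alone of the 8 was farther.

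**Figure D2:**
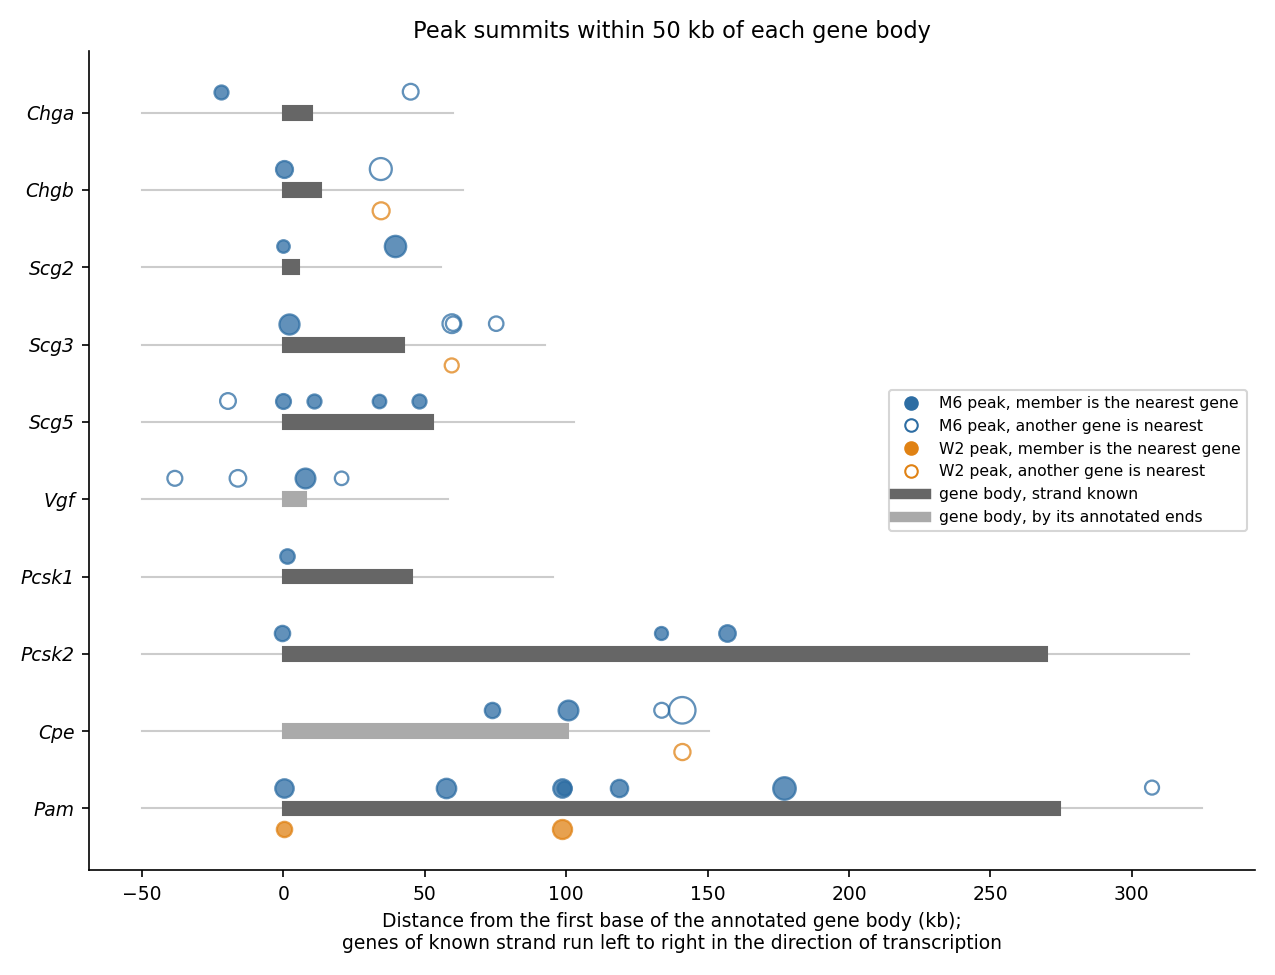
Map of peak summits in the window of each gene: the x axis is the distance in kb from the first base of the gene body (the lower-coordinate end for Vgf and Cpe, drawn in light grey), blue circles above the line are M6 peaks, orange circles below it W2 peaks, and circle area is proportional to the summit pileup. Filled circles are peaks to which the gene is the nearest; in W2 these are the 2 at Pam, and in M6 there are 22.

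Cpe, carboxypeptidase E, had an M6 peak over its upper annotated end (chromosome 8, 64692652 to 64693133), with a pileup of 30 (20.2 to 42.8), a fold of 4.68, a local background of 5.62 tags and a −log10 q of 9.59. A weaker one lay inside the gene (64666352 to 64666565, pileup 18). Neither had a W2 counterpart. The strongest M6 peak of any window in the group lay over an end of the neighbouring Msmo1, a sterol synthesis gene, and is described below with the shared sites.

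Pam, the amidating monooxygenase, is also made outside endocrine cells. It was the only gene of the group whose own peaks were found in W2, and a link between these was not tested. Its start peak had a pileup of 18 (10.7 to 28.4) in W2 and 26 (17.0 to 38.1) in M6, with folds of 4.38 and 4.61. The intervals overlapped. A peak 98.3 kb into the gene (M6: chromosome 1, 97997160 to 97997445) had a pileup of 28 (18.6 to 40.5) in W2 and 26 (17.0 to 38.1) in M6, with folds of 5.80 and 5.72. The intervals of this site overlapped almost fully. M6 had 4 more peaks inside Pam without a W2 counterpart. The strongest lay 177 kb into the gene (97918405 to 97918873), with a pileup of 39 (27.7 to 53.3), a fold of 7.72 and a −log10 q of 20.5, and the next one 57.3 kb into it, with a pileup of 29 and a −log10 q of 14.3. The other pair had pileups of 23 and 15.

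Over the whole windows, M6 had at least 1 peak at 10 of 10 genes and W2 at 4, against 74.4% and 48.3% of all protein-coding genes. More M6 than W2 peaks were found at 10 of 10, against 64.2% of all genes. At 6 genes M6 had peaks and W2 none, against 27.1% of all. The windows of this group are wider than usual, with a median of 144 kb against 117 kb, so counts were also taken per length. The pooled density was 0.274 peaks per 100 kb in W2 and 1.87 in M6, and over all genes 0.531 and 1.57. The group was thus below the overall density in W2 and slightly above it in M6. Over the gene bodies alone, W2 had peaks at 1 gene and M6 at 8, against 20.6% and 48.1% of all genes. In the 5 W2 peaks of the windows, the 3 outside Pam were all nearest to another gene, namely Trmt6 and Mcm8, Lysmd2, and Msmo1. Of the 34 M6 peaks, the gene of the group was the nearest for 22.

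The 5 W2 peaks all overlapped an M6 peak, as did 80.5% of all W2 peaks, whereas 29 of the 34 M6 peaks had no W2 counterpart. The shared share of the M6 peaks was 14.7% (exact binomial 95% interval 4.95 to 31.1%), and over all M6 peaks it was 20.2%. Of the shared sites, 3 lay at neighbouring genes and 2 at Pam. At the neighbouring genes the M6 pileup was the higher one. The W2 and M6 values over Trmt6, a tRNA methyltransferase gene, and Mcm8, a DNA helicase gene, were 22 and 37 tags. They were 15 and 27 at Lysmd2 and 20 and 54 at Msmo1. For Msmo1 the Poisson intervals did not overlap (12.2 to 30.9 in W2 and 40.6 to 70.5 in M6), and the fold was 4.55 in W2 and 8.36 in M6. At the other 4 sites the intervals overlapped. The median M6 to W2 ratio of pileups was 1.68 at these 5 sites and 1.46 at the 4618 W2 sites shared anywhere.

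**Figure D3:**
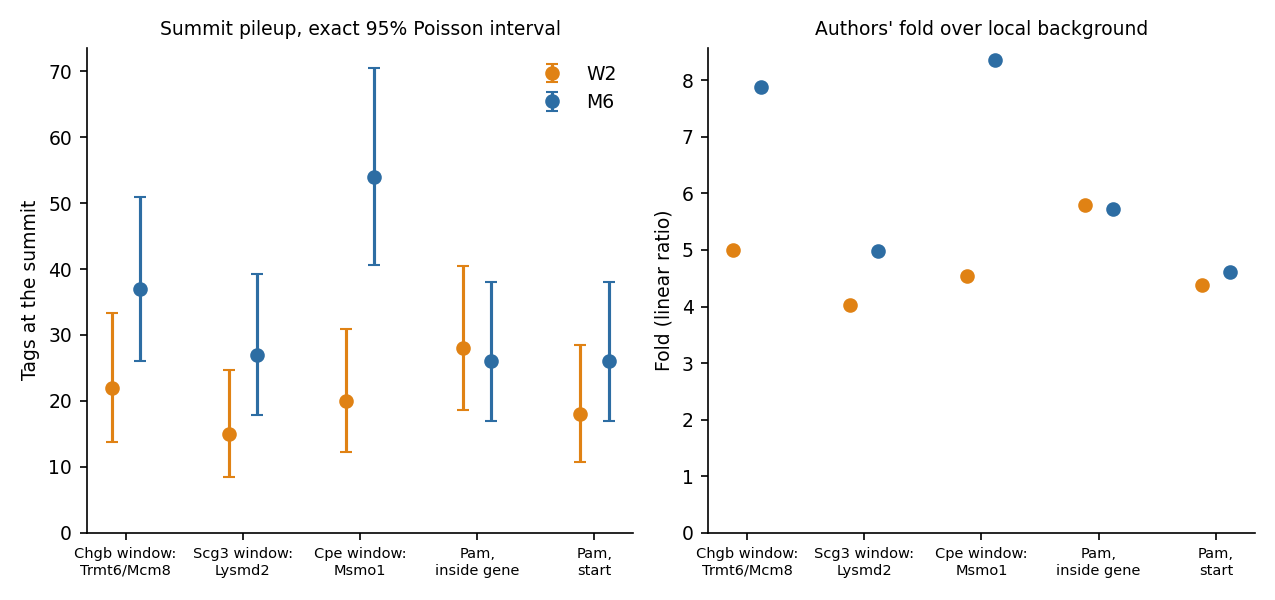
The 5 sites found in both libraries: tags at the summit with exact 95% Poisson intervals (left) and the authors' fold over local background (right), orange for W2 and blue for M6. The Msmo1 intervals are apart, those of the other 4 sites overlap, and both values at the site inside Pam are nearly equal.

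How much of the M6-only group the W2 list could have held was gauged only roughly, from this ratio. Dividing the pileups of the 29 M6-only peaks by 1.46 left 14 of them at or above 12 tags, the lowest pileup of the W2 list (48.3%, against 63.7% of all 18018 M6-only peaks). Of the 8 M6-only peaks at a start or annotated end, 5 stayed at or above 12 (Scg3, Vgf, Cpe, Chgb and Pcsk2) and 3 fell below it (Scg2, Pcsk1 and Scg5). At or above 21 tags, the median pileup of the W2 list, 3 of the 29 remained (10.3%, against 9.17% of all M6-only peaks), and 1 of the 8. For Scg2, Pcsk1 and Scg5, W2 sites lower by this ratio would fall below every pileup in the W2 list. The ratio comes only from sites listed in both libraries, and the lowest pileup is not a cut at each local background. These values therefore do not settle which of the M6-only peaks W2 could have listed. Sharing differed with peak strength over the whole list: W2 counterparts were found for 4.64% of all M6 peaks under a −log10 q of 5, 12.3% from 5 to under 10, 32.5% from 10 to under 15 and 66.0% from 15 up. In the windows the counts were 0 of 17, 2 of 10, 1 of 2 and 2 of 5. The 3 M6-only peaks of the last class were the one inside Pam, the one beyond Scg2 and the Scg3 start peak.

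The M6 list was then reduced to its 5735 strongest peaks by −log10 q, the length of the W2 list, and few peaks of these windows remained. M6 then had 6 peaks in the windows against 5 in W2, and 5 genes with a peak (45.1% of all genes) against 4. Only Scg2 had more peaks in M6 than in W2, against 14.8% of all genes. The 6 were those 3 strong peaks, the one 57.3 kb into Pam, and the neighbours' peaks at Trmt6 and Mcm8 and at Msmo1. Among starts only that of Scg3 kept its M6 peak, and 17.7% of all genes with a start had one. Counted by annotated ends, no M6 peak of the group remained and W2 had the 1 at Pam. The M6 peaks just above and just below the limit of 10.8 were the Pam peaks of −log10 q 14.3 and 10.7. The windows themselves had few peaks near their 50 kb edge. The outermost peaks inside it were 40.3 kb (M6) and 40.4 kb (W2) from Cpe, and the first ones outside were 50.9 kb from Pam in both libraries.

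Other genes of the same pathway were counted from lists of the genes that act beside these. Of 21 genes of the granule membrane and of granule release, gene-end peaks were listed at 2 in W2 and at 9 in M6, the 2 being among the 9. These shares, 9.5% and 42.9%, stood beside 18.4% and 39.7% of all genes, so the M6 share was near the overall one. The 5 strongest in M6 were Syt1, a calcium sensor of release (pileup 45, −log10 q 21.0, none in W2), Rab3d and Rab3a, GTPases of secretory vesicles, Slc18a1, a vesicular monoamine transporter (11.9, a peak shared with an end of Atp6v1b2), and Hid1, a protein of granule formation (6.81). Rab3d had pileups of 18 in W2 and 44 in M6, and Rab3a 20 and 47.

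Of 20 other processing enzymes and inhibitors, gene-end peaks were listed at 5 in W2 and at 11 in M6, with 4 in both. The shares were 25% and 55%, beside 18.4% and 39.7% of all genes. These enzymes include many that work in all cells. Those in both libraries were Pcsk4 (pileup 28 and 70, at a shared end with Reep6), Nrd1 (31 and 50), Prcp (29 and 42, shared with Ddias) and Pcsk7 (25 and 30, shared with Rnf214). Ctsl, a cathepsin that also cuts prohormones, had a peak in M6 only (pileup 28). Furin, the convertase used by most cells, lacked a gene-end peak in both libraries. Cpm, a carboxypeptidase of the cell surface, had one in W2 only (pileup 21). Furin and Cpm were named after their values were seen.

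The last list held the genes of the peptides themselves. Of 32 hormone and neuropeptide precursors, gene-end peaks were listed at 0 in W2 and at 7 in M6, or 21.9%, beside 39.7% of all genes. The 5 strongest were Iapp, amylin (pileup 24, −log10 q 11.5), Nmb, neuromedin B (6.55, shared with an end of Wdr73), Adm, adrenomedullin (5.56), Calca, calcitonin and CGRP (5.35), and Cck, cholecystokinin (3.75). The remaining pair were Crh and Pthlh. More M6 than W2 peaks lay in the windows of 21 of these 32 genes, a share near the 64.2% of all genes, and fewer at 0. The median difference was 1, as over all genes. In the granin and enzyme group it was 3, as in the list of granule membrane and release genes. Per 100 kb of window the median difference was 1.66 in the group and 0.856 over all genes. These differences between lists were not tested.

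**Figure D4:**
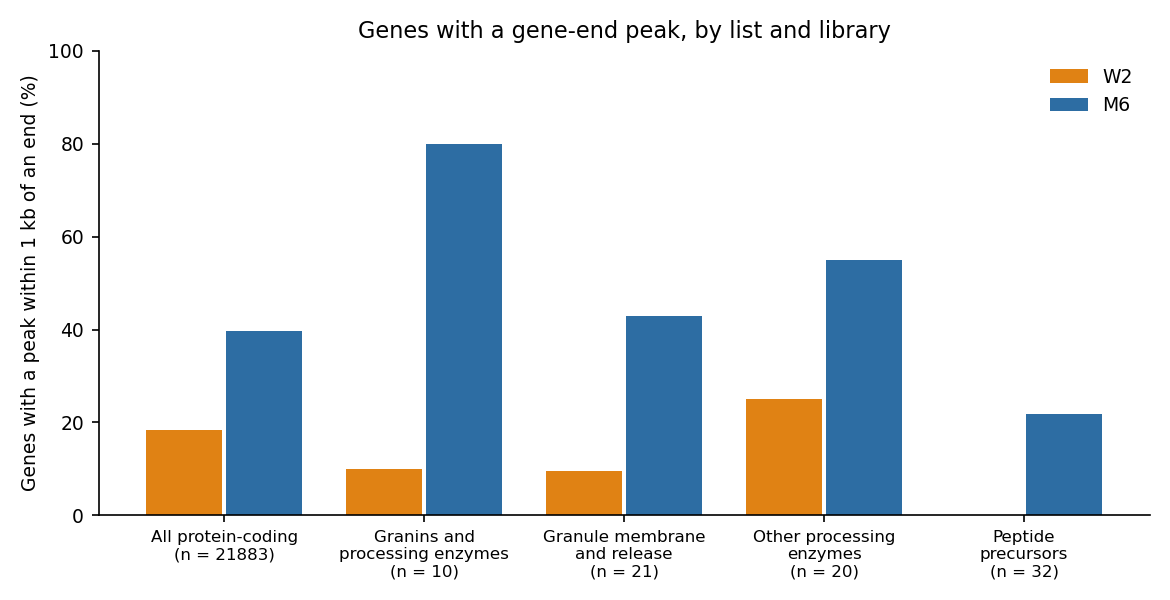
Share of genes (y axis, %) with a peak within 1 kb of an annotated gene end in W2 (orange) and M6 (blue), for all protein-coding genes, the 10 granin and processing genes and 3 lists of the same pathway. The 10 genes had 10.0% and 80.0%, all protein-coding genes 18.4% and 39.7%, and the peptide precursors 0% and 21.9%.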

How the data were processed

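ATAC-seq peak lists of 2 libraries, W2 and M6, were analysed. The late list carries another name than M6 in its file and was assigned to M6 by its sample record. The build was mm10 and the tools named were Bowtie2, deepTools, SAMtools 1.4 and Trim Galore 0.5.0, per the submitters' processing notes. The sources used here do not name the peak caller, its threshold or any shift of read ends. The lists were deposited per library. The fold the authors deposited is a linear ratio over local background, the deposited −log10 p and −log10 q values are the caller's, and the deposited score repeats the −log10 q and was not used. The 30 W2 and 24 M6 peaks outside chromosomes 1 to 19, X and Y were dropped.

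A whole-number summit pileup was recovered from fold and −log10 p for 100% of peaks of both libraries within 0.001, a step tested on simulated data. A peak was shared when it overlapped one of the other library by 1 bp or more. Genes and promoters came from RefSeq tables of GRCm38.p6. A gene end or start had a peak when one lay within 1 kb, and the first listed promoter of a gene was searched for motifs. All 10 genes are described, with their gene-end peaks, strongest peaks and shared sites, and lists name at most the 5 genes with the highest −log10 q. The genes and lists were chosen with earlier results of these data known. A further marker list is not reported here. With 1 library per stage no test was made. Python 3.11.15, numpy 2.4.6, pandas 2.3.3 and scipy 1.17.1 were used.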

Additional observations from a re-analysis of the deposited data

How the results depend on the processing

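No paired analysis was possible because each stage had 1 library. Depth is unknown, and pileups of 12 to 54 tags limit every value. Under 10 kb windows in place of 50 kb, W2 had 2 peaks at 1 gene and M6 had 20 peaks, 2 of them shared. Counting only peaks nearest to a gene of the group gave 2 W2 peaks at 1 gene and 22 in M6, with 2 shared. With a −log10 q of at least 5 there were 3 W2 and 17 M6 peaks, 3 shared, and the genes with a gene-end peak numbered 0 in W2 and 4 in M6. With equal numbers of peaks M6 had 6 peaks at 5 genes, gene-end peaks at 0, more peaks than W2 at 1, and 2 shared (33.3%). A peak over the gene end itself was found at 0 genes in W2 and 3 in M6. The other alternatives tried, an overlap of 50% of the shorter peak, a 2 kb distance and, added after the data were seen, RefSeq starts, left each count within 1.5 times. No share over all genes was counted under the 10 kb, 2 kb, nearest-gene, −log10 q or gene-end-itself settings. The M6 list was 3.94 times as long as the W2 list, and the part of list length in these counts was not tested. The larger number of M6 than W2 genes with a peak held under every alternative other than equal peak numbers. There it held only for window peaks, found at 5 M6 genes and 4 W2 genes. Gene-end peaks were then at 0 M6 genes and 1 W2 gene, and start peaks at 1 gene in each.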
